A study of Brassica rapa with 12 samples.

Results

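The heat by genotype interaction asks, gene by gene, whether gi plants of Chinese cabbage (Brassica rapa) answered heat in another way than wild-type plants did. It was taken as the log2 difference between 37 °C and 22 °C in gi minus the same difference in wild type, so that a positive value is a higher response in gi. All 12 libraries of the series entered it, 3 from each of 4 groups: gi at 37 °C, gi at 22 °C, wild type at 37 °C and wild type at 22 °C. The gi plants carry an edited GIGANTEA gene and flower late per the labels, which list wild type as early; both genotypes are of the cultivar Chiifu. Whole plants were 2 weeks old, grown on 1/2MS medium, and were held at 37 °C for 1 h or left at 22 °C. The labels give neither the nature of the edit nor the number of edited lines or of plants in a library. Libraries held 36778289 to 57777477 reads counted in genes, so a gene with no count in a library lay under 0.0377 to 0.0964 counts per 1000000 (CPM), taking a floor of 3 counts. In RNA from whole plants, fewer cells of a type and less RNA per cell cannot be told apart.

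Plants meet heat with heat shock factors, transcription factors that switch on genes for chaperones within minutes, while many genes of growth and metabolism are turned down. GIGANTEA belongs to the circadian clock of plants and acts with a light receptor of the ZEITLUPE family in photoperiodic flowering, and in Arabidopsis it is also tied to stress tolerance. Because clock genes gate many stress responses by time of day, a heat response can differ between clock genotypes either in the level reached under heat or in the level held before it. The 47249 IDs were looked up in a RefSeq gene table and none was found there, so the genes below have no symbol, role or printed sequence here. Chromosomes were read from the IDs, and the level of GIGANTEA itself was not analysed here.

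Heat changed a large share of the genes in both genotypes, and the responses differed between genotypes for 34 of the 28846 genes tested, or 0.118% (edgeR, adjusted p under 0.05). For 2945 genes, or 10.2%, the unadjusted p was under 0.05. The response was higher in gi for 20 genes (0.0693%) and lower for 14 (0.0485%). For comparison, 30.4% of the genes were called for heat in gi and 34.7% for heat in wild type. With total counts in place of TMM scaling 80.6% of the called genes were higher in gi, against 58.8% with TMM. That scaling called 27 of the 34 genes, and 19 of these in the type given below. By type, 16 of the 34 had a heat response called in wild type and not in gi, 10 had the same direction in both but a smaller response in gi, 6 were called in opposite directions, and 2 were called in gi and not in wild type. No gene was called in the same direction with a larger response in gi by edgeR, although 190 such genes had an unadjusted interaction p under 0.05 and DESeq2 called 38. Chromosome A03 held 18 of the 34 genes. Of the 4226 genes tested on A03, 0.426% were called, 0.331% higher and 0.0947% lower in gi. Among the 24620 genes tested elsewhere, 0.0650% were called, 0.0244% higher and 0.0406% lower.

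**Figure D1:**
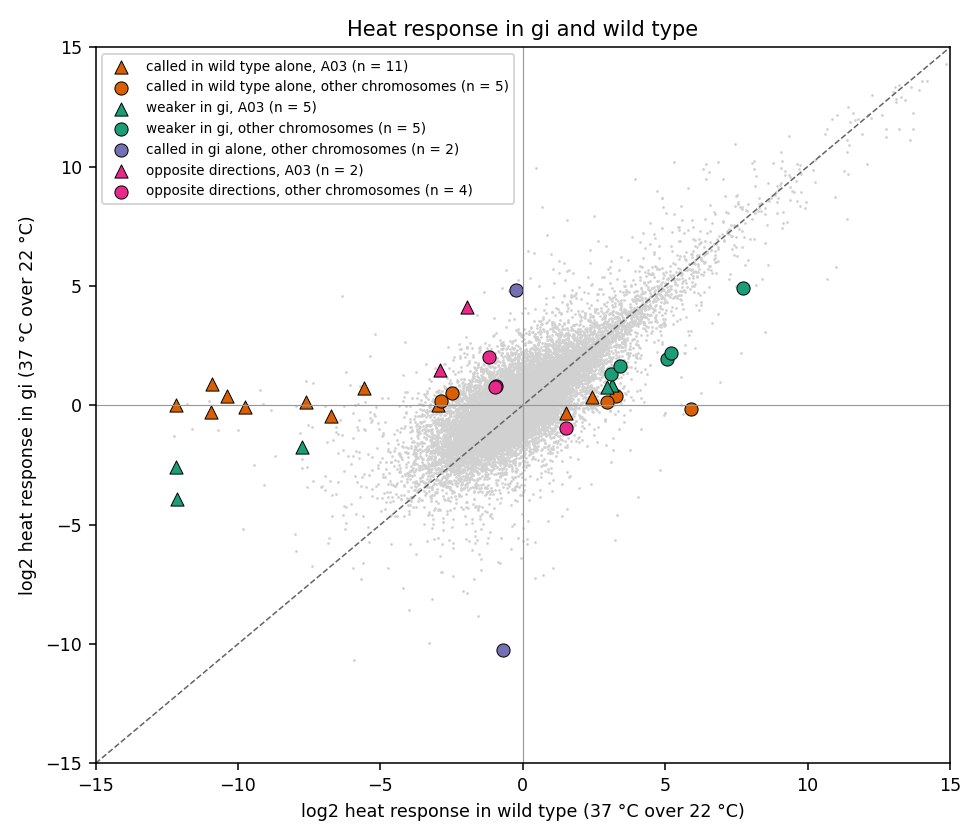
Log2 heat response (37 °C over 22 °C) in gi, on the vertical axis, against wild type, on the horizontal axis; grey points are the 28846 genes tested, coloured points the 34 with an interaction, by type, with triangles for A03. The triangles on the left, with large falls in wild type and values near 0 in gi, are genes of A03; fitted values beyond about 7 either way among the coloured points rest on groups with 3 counts or fewer and their size depends on the prior count of the model, apart from 1 gene that rose by 7.74 in wild type.

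The number of genes called was sensitive to single libraries and to the model. It fell to 18, 14 and 14 without gi at 37 °C replicate 1, 2 or 3, to 16 and 11 without gi at 22 °C replicate 1 or 2, and to 17, 22 and 22 with wild type at 37 °C replicate 1, 2 or 3 left out. It was 120 once wild type at 22 °C replicate 1 was left out. That library stood apart from its group. Its chi-squares of counts per degree of freedom were 353 and 318 against replicates 2 and 3, which gave 68.8 between themselves. In gi, replicate 1 also gave larger values against replicates 2 and 3 than those gave between themselves. They were 58.1 and 70.7 against 14.9 at 37 °C, and 103 and 120 against 39.2 at 22 °C. Libraries with the same replicate number deviated together, and with that number as a block 16 genes were called, 10 higher and 6 lower. All 16 were among the 34. With a block within each temperature 9 were called, 8 of them among the 34, and DESeq2 called 517, which included all 34. Over the 18 alternatives tried, 6 genes were called in every one: BraA03g046710.3.5C, BraA03g049540.3.5C, BraA03g050760.3.5C, BraA03g053310.3.5C, BraA06g015310.3.5C and BraA06g032400.3.5C. These 6 were singled out after their values were seen.

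Most of the differences lay in the heated plants. For 27 of the 34 genes gi and wild type were called different at 37 °C and not at 22 °C, for 7 at 22 °C and not at 37 °C, and for none at both (edgeR; 2.70% of all genes tested were called at 37 °C and 1.01% at 22 °C). By unadjusted p under 0.05, 9 of the 34 differed at both, and by DESeq2 2 did. Among the 27, gi was higher at 37 °C for 14 of 16 genes on A03 and for 5 of 11 on other chromosomes. The 3 libraries of gi and the 3 of wild type did not overlap at 37 °C for 33 of the 34 genes, and for 10 at 22 °C. Over all genes tested they did not overlap for 30.6% at 37 °C and 20.5% at 22 °C. The 34 were chosen by a test on these same libraries, so nothing further is read from these counts. Of the 7 genes with a difference at 22 °C, 6 stood higher in gi there, by 2.57 to 11.2 times, and were raised by heat in wild type.

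**Figure D2:**
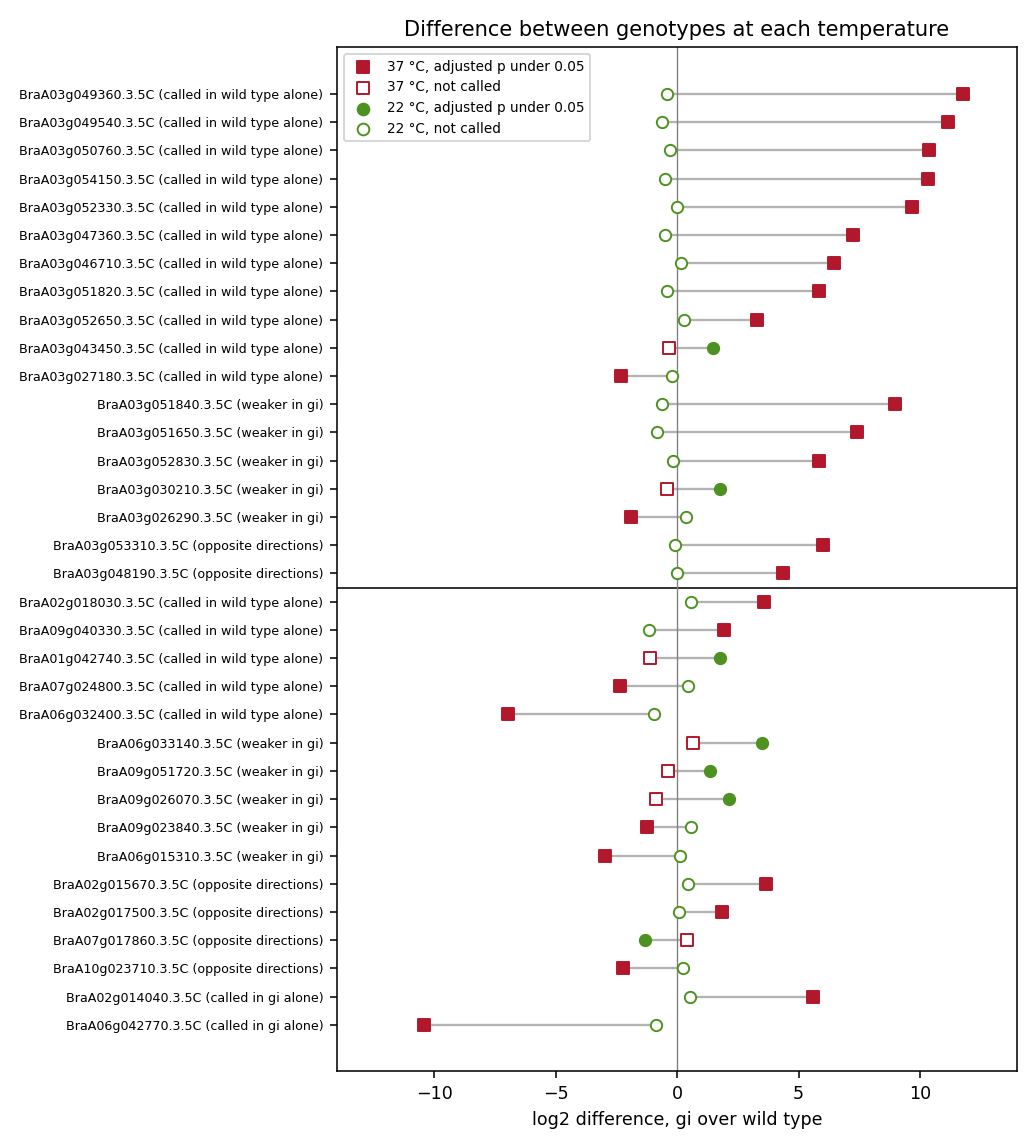
Log2 difference of gi over wild type at 37 °C (red squares) and at 22 °C (green circles) for each of the 34 genes, A03 above the line and other chromosomes below it; filled symbols have an adjusted p under 0.05. Filled squares mark the 27 genes that differed at 37 °C and filled circles the 7 that differed at 22 °C; values beyond 7 rest on a group with 3 counts or fewer.

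On A03, the largest class was of 9 genes that heat lowered in wild type and that had no called response in gi. BraA03g049540.3.5C had 28.9, 19.5 and 38.5 CPM in gi at 37 °C and 8.75, 14.2 and 24.3 CPM in gi at 22 °C, against 0, 0.0307 and 0 CPM in wild type at 37 °C and 12.3, 30.1 and 30.7 CPM in wild type at 22 °C. The wild type at 37 °C held a single read over its 3 libraries, while the other 9 libraries all lay above 8 CPM. By counts, gi at 37 °C was 2916 times higher than wild type at 37 °C, with a 95% counting interval of 523 to 115210.0. The change in gi was 0.88 (SE 0.44, adjusted p = 0.16) on the log2 scale, and the interaction had an adjusted p of 0.00129. BraA03g049360.3.5C had 6.95, 6.33 and 12.8 CPM in gi at 37 °C and 7.20, 5.24 and 13.6 CPM in gi at 22 °C, against 0, 0 and 0 CPM in wild type at 37 °C and 9.57, 12.2 and 13.1 CPM in wild type at 22 °C. Here the wild type at 37 °C had no read at all, and gi at 37 °C was at least 94.7-fold higher against the floor of 3 counts per library. The change in gi was 0.00 (SE 0.39, adjusted p = 1), and the interaction (adjusted p = 0.00299) was not called with a block within each temperature (adjusted p = 0.0717).

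Over these 9 genes, the log2 change with heat ran from -0.43 to 0.88 in gi, where none was called, and the 3 libraries at 37 °C overlapped the 3 at 22 °C for each. In wild type it ran from -12.17 to -2.99, with no overlap (over all genes tested, libraries at the 2 temperatures did not overlap for 52.7% in gi and 46.8% in wild type), and in 6 of the 9 the wild type at 37 °C held 3 reads or fewer. BraA03g046710.3.5C averaged 9.20 ± 3.06 CPM in gi at 37 °C, 12.4 ± 3.70 in gi at 22 °C, 0.103 ± 0.0515 in wild type at 37 °C and 11.2 ± 3.74 in wild type at 22 °C (SD, n = 3 each). This gene is not among the examples fixed by rule, but its wild-type level under heat was low and not zero, so a ratio can be given: gi was 89.3 times higher at 37 °C, and the interaction was 6.32 (SE 0.60, adjusted p = 0.00234). With the replicate block 6 of the 9 were called. With total counts a fall in gi was called for 2 of the 9, BraA03g046710.3.5C and BraA03g050760.3.5C. At 22 °C the libraries of the genotypes overlapped for all 9.

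A further 3 genes of A03 fell with heat in both genotypes, and further in wild type. BraA03g051840.3.5C had 1.23, 1.23 and 1.30 CPM in gi at 37 °C and 9.74, 4.79 and 7.92 CPM in gi at 22 °C, against 0, 0 and 0 CPM in wild type at 37 °C and 9.86, 11.02 and 13.8 CPM in wild type at 22 °C. All 3 wild-type libraries at 37 °C had no read, while the gi libraries at 37 °C lay close together, below every library at 22 °C. In gi the fall was -2.57 (SE 0.30, adjusted p = 0.000288). In wild type the level at 37 °C was at least 126-fold lower than at 22 °C against the floor, and the interaction had an adjusted p of 0.00234, or 0.128, not called, with a block within each temperature. BraA03g051650.3.5C had 0.489, 0.378 and 0.393 CPM in gi at 37 °C and 4.95, 6.60 and 7.78 CPM in gi at 22 °C, against 0, 0 and 0 CPM in wild type at 37 °C and 6.28, 15.5 and 12.6 CPM in wild type at 22 °C. The fall in gi was -3.93 (SE 0.40, adjusted p = 0.000123), and the wild type was again without a read at 37 °C, at least 125-fold lower than at 22 °C. The interaction of this gene (adjusted p = 0.0211) was not called with the replicate block (adjusted p = 0.0704) or in 6 of the 12 fits that left out 1 library.

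Heat moved 2 genes of A03 in opposite directions. BraA03g053310.3.5C had 474, 263 and 228 CPM in gi at 37 °C and 25.8, 13.5 and 15.96 CPM in gi at 22 °C, against 4.38, 5.31 and 5.43 CPM in wild type at 37 °C and 23.01, 18.3 and 16.8 CPM in wild type at 22 °C. The gi libraries at 37 °C stood above all others and the wild-type libraries at 37 °C below all others, while the genotypes overlapped at 22 °C. Heat raised the gene in gi by 4.12 (SE 0.35, adjusted p = 1.05e-05) and changed it in wild type by -1.94 (SE 0.32, adjusted p = 0.0011), on the log2 scale; the interaction was 6.07 (SE 0.47, adjusted p = 0.000965). BraA03g048190.3.5C had 4.81, 3.90 and 6.64 CPM in gi at 37 °C and 1.76, 1.32 and 2.46 CPM in gi at 22 °C, against 0.174, 0.246 and 0.321 CPM in wild type at 37 °C and 2.34, 1.57 and 1.63 CPM in wild type at 22 °C. The order of the groups was the same: the rise in gi was 1.47 (SE 0.35, adjusted p = 0.00931), the change in wild type was -2.89 (SE 0.39, adjusted p = 0.000278), and the interaction was 4.36 (SE 0.53, adjusted p = 0.0116). Its adjusted p was 0.0513 without gi at 22 °C replicate 2 and 0.0821 with a block within each temperature, neither of which was called. With total counts the rise in gi had an adjusted p of 0.0889 and was not called.

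The 14 genes of A03 with a higher response in gi, of which these 3 classes consist, lay by ID between BraA03g046710.3.5C and BraA03g054150.3.5C, a span of 470 of the 4226 A03 genes tested. All 4 genes of A03 with a lower response in gi lay outside it, between BraA03g026290.3.5C and BraA03g043450.3.5C. IDs are taken to run in chromosome order, by naming convention. In the span, 3 reads or fewer were counted for 9 genes tested in gi at 37 °C (1.91%) and for 6 genes at 22 °C (1.28%), against 22 in wild type at 37 °C (4.68%) and 0 in wild type at 22 °C. On the rest of A03 these shares were 1.36% in gi at 37 °C and 1.04% at 22 °C, against 1.33% in wild type at 37 °C and 0.399% in wild type at 22 °C. The span was drawn from the called genes, so these shares are a description with no test. Whether the low wild-type counts at 37 °C come from heat or from plants that differ in this region was not tested.

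In the 4 genes of A03 with a lower response in gi, heat raised the wild type more. BraA03g026290.3.5C had 38.8, 31.5 and 26.4 CPM in gi at 37 °C and 20.6, 16.4 and 16.9 CPM in gi at 22 °C, against 131, 103 and 127 CPM in wild type at 37 °C and 18.1, 11.9 and 11.3 CPM in wild type at 22 °C. The libraries of the genotypes overlapped at 22 °C, and at 37 °C the wild type stood well above gi. Heat raised it by 0.84 (SE 0.22, adjusted p = 0.0137) in gi and by 3.13 (SE 0.23, adjusted p = 3.55e-06) in wild type, and the interaction was -2.28 (SE 0.31, adjusted p = 0.0226). It was not called with a block within each temperature (adjusted p = 0.0694) or in 6 of the 12 fits without 1 library, and with total counts the rise in gi was not called (adjusted p = 0.305). BraA03g027180.3.5C averaged 4.15 ± 1.06 CPM in gi at 37 °C, 3.25 ± 0.366 in gi at 22 °C, 20.3 ± 4.28 in wild type at 37 °C and 3.72 ± 0.454 in wild type at 22 °C. The rise in wild type was 2.45 (SE 0.24, adjusted p = 2.66e-05), the change in gi was 0.35 (SE 0.23, adjusted p = 0.281), and the interaction was -2.10 (SE 0.33, adjusted p = 0.047). The other 2 differed at 22 °C, where gi already stood higher. BraA03g030210.3.5C averaged 405 ± 61.6 CPM in gi at 37 °C, 237 ± 36.4 in gi at 22 °C, 539.6 ± 53.1 in wild type at 37 °C and 69.4 ± 17.6 in wild type at 22 °C. The interaction was -2.19 (SE 0.33, adjusted p = 0.0371). BraA03g043450.3.5C averaged 141 ± 7.06 CPM in gi at 37 °C, 175 ± 23.6 in gi at 22 °C, 177 ± 31.99 in wild type at 37 °C and 62.3 ± 2.04 in wild type at 22 °C. The interaction was -1.82 (SE 0.25, adjusted p = 0.0227), and gi changed by -0.31 (SE 0.18, adjusted p = 0.21). With total counts its change in gi was -0.92 and called (adjusted p = 0.00334), and its interaction was not called (adjusted p = 0.0865). Under that scaling the interactions of BraA03g027180.3.5C and BraA03g030210.3.5C were not called either (adjusted p = 0.171 and 0.0639). With the replicate block the last 3 of these 4 genes had adjusted p values of 0.0896, 0.0832 and 0.0716 and were not called, and they also lost the call in 11, 10 and 9 of the 12 fits without 1 library.

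On the other chromosomes the lower responses in gi outnumbered the higher ones with TMM scaling, 10 to 6. With total counts 18 genes were called there, and only 7 of the 36 genes called on all chromosomes were lower. Under that scaling the lower responses therefore did not outnumber the higher ones. Of the 10 lower genes with TMM, 8 were genes that heat raised in wild type with a weaker or no called rise in gi. The largest interaction of these 8 was on A06. BraA06g032400.3.5C had 1.52, 2.27 and 2.73 CPM in gi at 37 °C and 2.27, 2.14 and 2.81 CPM in gi at 22 °C, against 314, 229 and 281 CPM in wild type at 37 °C and 1.97, 4.05 and 7.82 CPM in wild type at 22 °C. Heat took the 3 wild-type libraries far above all the others, and the gi libraries at 37 °C overlapped those at 22 °C. Wild type at 37 °C stood 126 times above gi at 37 °C. The rise in wild type was 5.89 (SE 0.49, adjusted p = 7.12e-06), the change in gi was -0.15 (SE 0.41, adjusted p = 0.824), and the interaction was -6.04 (SE 0.61, adjusted p = 0.00299). A second gene with a rise called in wild type alone was on A01. BraA01g042740.3.5C averaged 45.8 ± 12.8 CPM in gi at 37 °C, 35.1 ± 11.04 in gi at 22 °C, 98.5 ± 9.16 in wild type at 37 °C and 10.2 ± 3.86 in wild type at 22 °C. Its interaction was -2.89 (SE 0.44, adjusted p = 0.0376), with gi higher at 22 °C (log2 difference 1.78 (SE 0.31, adjusted p = 0.0272)). It was not called with total counts (adjusted p = 0.0819), with the replicate block (adjusted p = 0.0832) or in 10 of the 12 fits without 1 library.

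**Figure D3:**
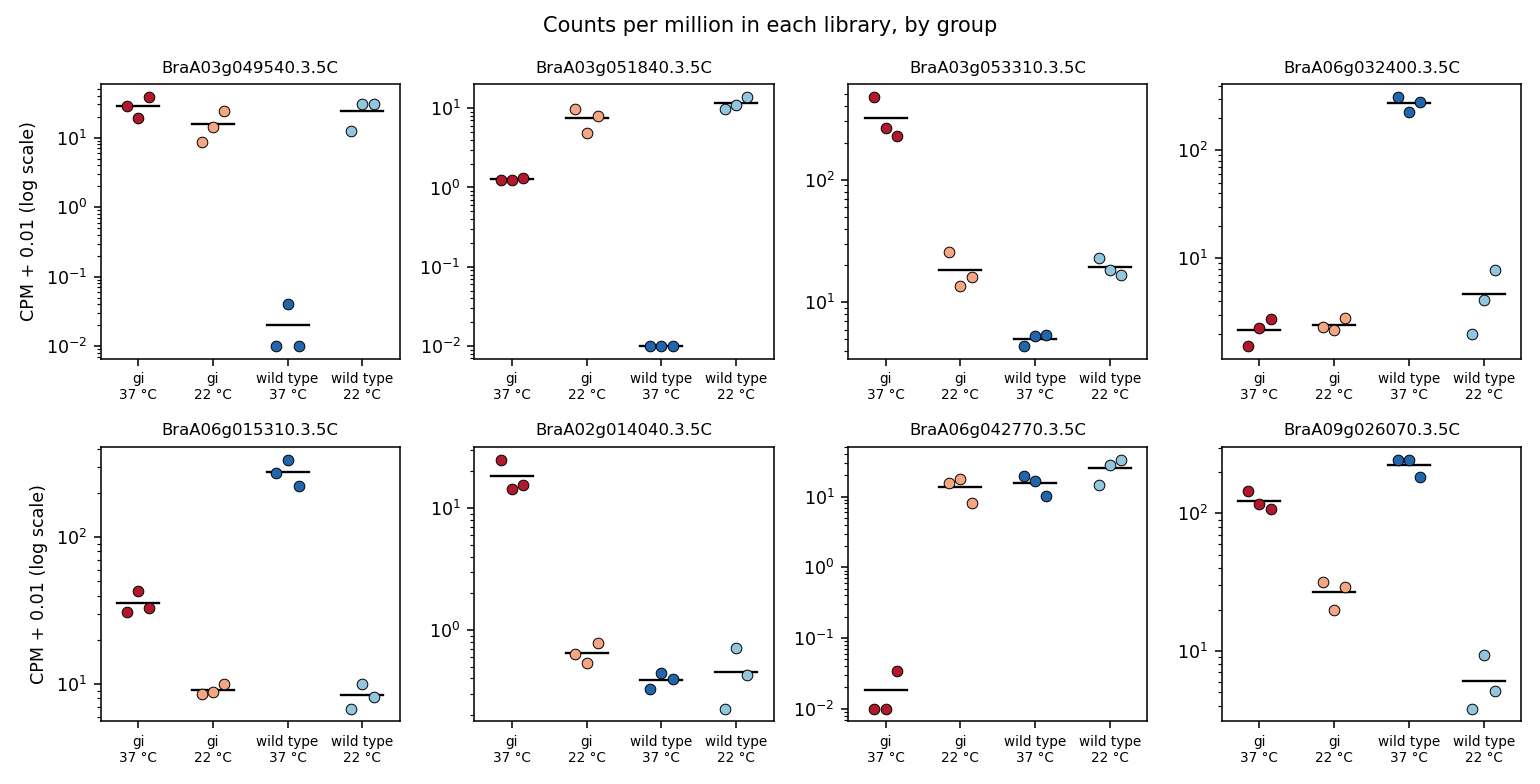
CPM plus 0.01 on a log scale in each of the 12 libraries (points) with group means (bars) for 8 of the named genes; points at 0.01 are libraries with no read. The wild type at 37 °C stands apart for the first 5 genes. Both heated groups stand apart from the unheated ones for BraA03g053310.3.5C, BraA03g051840.3.5C and BraA06g015310.3.5C. For BraA09g026070.3.5C every group stands apart from the others. The group that stands apart is gi at 37 °C for BraA02g014040.3.5C and BraA06g042770.3.5C.

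In 5 genes off A03 heat raised both genotypes, and gi less. BraA06g015310.3.5C had 31.00, 42.7 and 32.9 CPM in gi at 37 °C and 8.57, 8.79 and 10.1 CPM in gi at 22 °C, against 272, 338 and 223 CPM in wild type at 37 °C and 6.78, 10.1 and 8.22 CPM in wild type at 22 °C. Before heat the genotypes overlapped, and under heat they did not. The rise was 3.88-fold in gi and 33.2-fold in wild type, and the interaction was -3.10 (SE 0.30, adjusted p = 0.00278). BraA09g026070.3.5C had 144, 117 and 107 CPM in gi at 37 °C and 31.7, 19.7 and 29.01 CPM in gi at 22 °C, against 246, 246 and 183 CPM in wild type at 37 °C and 3.80, 9.34 and 5.09 CPM in wild type at 22 °C. Here gi stood 4.41 times higher than wild type at 22 °C. At 37 °C the difference between genotypes was -0.88 (SE 0.31, adjusted p = 0.151) on the log2 scale. The interaction was -3.02 (SE 0.45, adjusted p = 0.0371). It was not called with total counts (adjusted p = 0.0619), with the replicate block (adjusted p = 0.101) or in 10 of the 12 fits without 1 library. With the block 3 of the 5 genes were called. With total counts the interactions of BraA09g023840.3.5C (adjusted p = 0.0698) and BraA09g051720.3.5C (adjusted p = 0.166) were not called either. Of the 5 genes, 3 were called different between the genotypes at 22 °C and not at 37 °C.

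A gene outside the rule, BraA06g033140.3.5C, shows the difference at 22 °C most plainly and was chosen after its values were seen. BraA06g033140.3.5C had 652, 471 and 406 CPM in gi at 37 °C and 17.4, 16.00 and 17.7 CPM in gi at 22 °C, against 416, 349.8 and 209.8 CPM in wild type at 37 °C and 1.43, 1.50 and 1.62 CPM in wild type at 22 °C. Unheated gi was 11.2 times higher, with no overlap, and at 37 °C the libraries of the genotypes overlapped. Heat raised it 29.9-fold in gi and 215-fold in wild type, and the interaction was -2.84 (SE 0.38, adjusted p = 0.0211). It was called with both kinds of replicate block, the only 1 of the 7 genes with a difference at 22 °C that was called with either, and was not called in 6 of the 12 fits without 1 library.

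In 2 genes off A03 a fall with heat was called in wild type and not in gi. BraA02g018030.3.5C had 11.6, 10.3 and 11.04 CPM in gi at 37 °C and 7.70, 7.36 and 7.95 CPM in gi at 22 °C, against 0.987, 0.829 and 0.932 CPM in wild type at 37 °C and 4.43, 7.87 and 3.10 CPM in wild type at 22 °C. The wild type at 37 °C lay below every other library. The interaction was 3.00 (SE 0.41, adjusted p = 0.023), and the change in gi was 0.52 (SE 0.28, adjusted p = 0.191). BraA09g040330.3.5C averaged 9.56 ± 2.33 CPM in gi at 37 °C, 8.33 ± 2.85 in gi at 22 °C, 2.48 ± 0.968 in wild type at 37 °C and 18.3 ± 5.43 in wild type at 22 °C. At 22 °C wild type stood 2.20 times above gi with no overlap of libraries, a difference that was not called (log2 difference of gi over wild type -1.13, SE 0.34, adjusted p = 0.162). The interaction was 3.08 (SE 0.49, adjusted p = 0.0497). Neither was called with the replicate block (adjusted p = 0.0832 and 0.14), and they lost the call in 9 and 10 of the 12 fits without 1 library.

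Opposite directions were called for 4 genes off A03, of which 3 rose in gi and fell in wild type. With total counts the rise in gi was not called for BraA02g017500.3.5C (adjusted p = 0.480) or BraA07g017860.3.5C (adjusted p = 0.590). It was still called for BraA02g015670.3.5C (adjusted p = 0.00217). BraA02g015670.3.5C had 55.8, 36.5 and 37.2 CPM in gi at 37 °C and 11.5, 10.5 and 9.30 CPM in gi at 22 °C, against 3.37, 3.13 and 3.79 CPM in wild type at 37 °C and 6.52, 11.9 and 4.71 CPM in wild type at 22 °C. The gi libraries at 37 °C were the highest and the wild-type libraries at 37 °C the lowest, although wild type at 22 °C ranged widely. The interaction was 3.21 (SE 0.44, adjusted p = 0.0226). BraA02g017500.3.5C averaged 7.69 ± 0.550 CPM in gi at 37 °C, 4.36 ± 0.333 in gi at 22 °C, 2.12 ± 0.221 in wild type at 37 °C and 4.08 ± 0.630 in wild type at 22 °C. The interaction was 1.76 (SE 0.28, adjusted p = 0.047). The reverse was seen for 1 gene. BraA10g023710.3.5C averaged 9.30 ± 0.416 CPM in gi at 37 °C, 17.9 ± 1.45 in gi at 22 °C, 43.2 ± 8.53 in wild type at 37 °C and 14.9 ± 5.49 in wild type at 22 °C. In gi it fell by 0.95 (SE 0.24, adjusted p = 0.0122) on the log2 scale, in wild type it rose by 1.53 (SE 0.24, adjusted p = 0.000742), and the interaction was -2.48 (SE 0.34, adjusted p = 0.0226). None of the 4 was called with the replicate block; for these 3 the adjusted p values with it were 0.0704, 0.152 and 0.0569, and the call was lost in 9, 10 and 8 of the 12 fits without 1 library.

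A response called in gi and not in wild type was found for 2 genes, 1 in each direction. BraA02g014040.3.5C had 25.01, 14.4 and 15.3 CPM in gi at 37 °C and 0.621, 0.530 and 0.768 CPM in gi at 22 °C, against 0.319, 0.430 and 0.386 CPM in wild type at 37 °C and 0.216, 0.702 and 0.415 CPM in wild type at 22 °C. The 3 gi libraries at 37 °C stood above the other 9, all of which were below 1 CPM. The rise in gi was 4.83 (SE 0.43, adjusted p = 1.42e-05), the change in wild type was -0.24 (SE 0.41, adjusted p = 0.682), and the interaction was 5.07 (SE 0.57, adjusted p = 0.00693). BraA06g042770.3.5C had 0, 0 and 0.0246 CPM in gi at 37 °C and 15.7, 17.8 and 8.01 CPM in gi at 22 °C, against 19.5, 16.9 and 10.2 CPM in wild type at 37 °C and 14.8, 27.7 and 33.5 CPM in wild type at 22 °C. A single read was counted over the 3 gi libraries at 37 °C, and the other 9 libraries lay above 8 CPM. By counts, gi at 22 °C was 1539 times higher than gi at 37 °C (95% counting interval 276 to 60812). The change in wild type was -0.71 (SE 0.39, adjusted p = 0.185), and the interaction had an adjusted p of 0.00234. Both genes were called with the replicate block and in all 12 fits without 1 library. With total counts both interactions were called (adjusted p = 0.00769 and 0.00388), but a fall in wild type was called too (adjusted p = 0.0300 and 0.00492), so that 0 genes were left in this type. Within each temperature the block gave adjusted p values of 0.119 and 0.0717, which were not called.

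The heat response as a whole was of much the same size in both genotypes for genes that rose, and the middle of the genes that fell was somewhat less negative in gi. Over the 3764 genes called and raised at least 2-fold on the mean of both genotypes, the median log2 change was 2.05 in gi and 2.02 in wild type, and the median interaction was -0.03, beside 0.01 over all genes tested. These genes took 55.1%, 50.7% and 48.9% of the counts of tested genes in gi at 37 °C and 7.64%, 8.28% and 8.67% in gi at 22 °C, against 52.3%, 52.7% and 51.2% in wild type at 37 °C and 6.90%, 9.01% and 9.21% in wild type at 22 °C. Between libraries of the same replicate number, the difference of the heat responses in their mean log2 CPM was 0.17, -0.038 and -0.11. Without gi at 37 °C replicate 1 the median interaction of the raised genes was -0.18. Over the 4213 genes called and lowered at least 2-fold, the median change was -1.51 in gi and -1.74 in wild type, with a median interaction of 0.23. The mean log2 CPM of these genes was 0.45, 0.79 and 0.93 in gi at 37 °C and 0.42, 0.52 and 0.60 in wild type at 37 °C, and these libraries overlapped. Between libraries of the same replicate number, gi stood 0.029, 0.27 and 0.34 above wild type at 37 °C, and the difference of the heat responses was 0.070, 0.22 and 0.36, positive in all 3 pairs. No test was made of these medians. With total counts in place of the TMM scaling the median of all genes was 0.34, and those of raised and lowered genes were 0.27 and 0.43, so relative to all genes the lowered ones stood 0.22 higher with TMM and 0.09 higher with total counts. Without gi at 37 °C replicate 3 the median of the lowered genes was 0.08, without gi at 22 °C replicate 3 it was 0.14, without wild type at 22 °C replicate 1 it was 0.14, and with wild type at 37 °C replicate 3 or wild type at 22 °C replicate 2 left out it was 0.36 and 0.35.

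**Figure D4:**
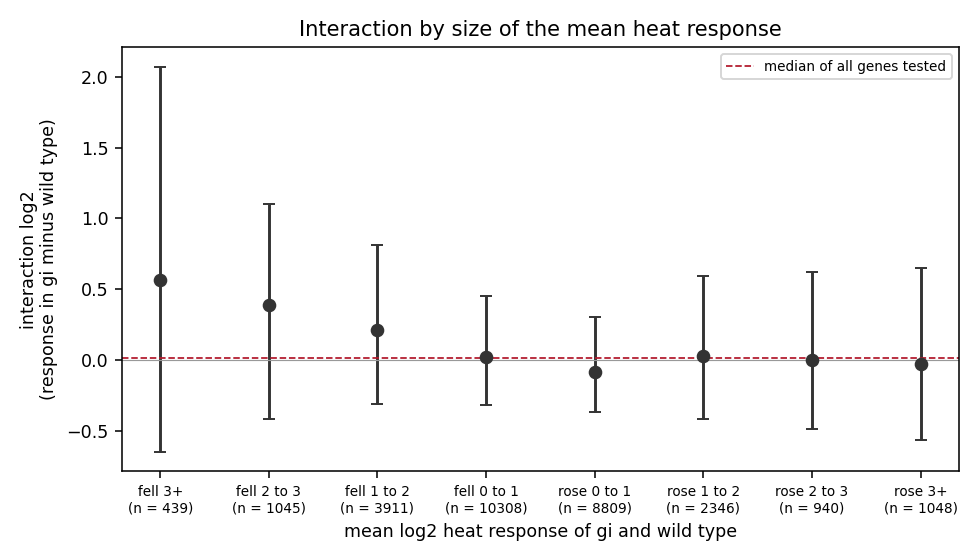
Median interaction (response in gi minus wild type, log2; bars are the 25th to 75th percentiles over genes) by the mean heat response of both genotypes, log2; the dashed line is the median of all genes tested. The median was 0.56 for the 439 genes that fell by 3 or more and -0.03 for the 1048 that rose by 3 or more, and the bars of all 8 classes span 0.

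On A03 the 662 lowered genes had a median interaction of 0.43 and the 574 raised genes of -0.06. On the other chromosomes the medians were 0.20 for 3551 lowered genes and -0.03 for 3190 raised genes. No difference between A03 and the other chromosomes was tested.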

How the data were processed

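Whole reads per gene were deposited by the authors as 1 count table per library, with no normalization. The submitters' processing notes list FastQC, TopHat2, HTSeq and edgeR and give no versions; the genome build, annotation release and strand setting are not given in the sources used here. Libraries were made with a strand-specific mRNA kit, per the labels' protocols. The 5 summary rows at the end of each table were left out; of aligned reads, 3.12% lay outside genes on average, 1.08% were ambiguous, 1.50% had a low alignment quality and 3.55% had more than 1 alignment. None of the 47249 IDs matched the gene table of CAAS_Brap_v3.01. Counting may have divided or dropped reads of near-identical copies.

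The fit was made with edgeR 4.0.16 in R 4.3.3: filterByExpr (minimum count 10, minimum total 15), TMM scaling and 1 robust quasi-likelihood fit of 4 group means to all 12 libraries, with Benjamini-Hochberg adjustment over 28846 genes and calls under 0.05. The types use the heat calls of the same fit. CPM values are TMM-scaled; SEs come from the log2 change and the F statistic. Floors and 95% counting intervals cover counting error only. The procedure was tested on simulated data. The alternatives were DESeq2 1.42.0, RLE or total-count scaling, no filter on low counts, a replicate block over all libraries or within each temperature, and leaving out each library.

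In each type, set of chromosomes (A03 or other) and direction, the 2 genes with the largest interaction and a group mean of at least 5 CPM are named. The contrast, types and lists were chosen with earlier results of these data known. Replicate numbers come from the labels; deviations of same-numbered gi and wild-type libraries correlated at 0.429, 0.152 and 0.221 at 37 °C and 0.285, 0.145 and 0.220 at 22 °C, all over 0.1, so the numbers were taken to pair the libraries. Of the 12 pairs with different numbers 1 was also over 0.1, gi replicate 2 with wild type replicate 3 at 37 °C (0.256). The labels do not say whether replicates were grown separately, so the spread behind the p-values is that between libraries and may be technical.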

Additional observations from a re-analysis of the deposited data

Results flagged for a closer look

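A difference between the genotypes in the same contrast, tested by the interaction itself (edgeR), marked out the 20 genes with a higher and the 14 with a lower heat response in gi. Among the named genes on A03 the interaction log2 was 12.17 for BraA03g049360.3.5C, 11.78 for BraA03g049540.3.5C, 9.59 for BraA03g051840.3.5C, 8.23 for BraA03g051650.3.5C, 6.07 for BraA03g053310.3.5C, 4.36 for BraA03g048190.3.5C with a higher response in gi. It was -2.28 for BraA03g026290.3.5C, -2.19 for BraA03g030210.3.5C, -2.10 for BraA03g027180.3.5C, -1.82 for BraA03g043450.3.5C with a lower one. On other chromosomes it was 5.07 for BraA02g014040.3.5C, 3.21 for BraA02g015670.3.5C, 3.08 for BraA09g040330.3.5C, 3.00 for BraA02g018030.3.5C, 1.76 for BraA02g017500.3.5C, and in the other direction -9.53 for BraA06g042770.3.5C, -6.04 for BraA06g032400.3.5C, -3.10 for BraA06g015310.3.5C, -3.02 for BraA09g026070.3.5C, -2.89 for BraA01g042740.3.5C, -2.48 for BraA10g023710.3.5C. The sizes for BraA03g051840.3.5C, BraA03g051650.3.5C, BraA03g049360.3.5C, BraA03g049540.3.5C and BraA06g042770.3.5C rest on a group with 0 or 1 read, and depend on the prior count of the model.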

How the results depend on the processing

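The direction of every named gene stayed the same under all 18 alternatives, while calls and counts did not. DESeq2 called 278 genes higher and 239 lower in gi, 119 on A03 and 398 elsewhere. By type 207 were called for heat in wild type alone, 68 weaker in gi, 38 stronger, 155 in gi alone and 49 opposite. With total counts in place of TMM 7 genes were lower, 2 stronger and 0 in gi alone, 80.6% of the called genes were higher against 58.8%, and the medians of raised and lowered genes were 0.27 and 0.43. With no filter on low counts 1 was stronger, and RLE scaling moved no count by over 1.5 times. The replicate block left 10 higher and 6 lower genes, 10 on A03 and 6 elsewhere, with 7 called in wild type alone, 5 weaker, 2 in gi alone and 2 opposite or called in neither. The replicate block within each temperature left 5 higher and 4 lower, 6 on A03 and 3 elsewhere, with 3 called in wild type alone, 3 weaker, 0 in gi alone and 3 opposite or called in neither. Leaving out 1 library gave 8 to 45 higher and 3 to 75 lower genes, 7 to 43 on A03 and 4 to 77 elsewhere. By type the ranges were 6 to 53 called in wild type alone, 2 to 20 weaker, 0 to 5 stronger, 2 to 17 in gi alone and 1 to 25 opposite or called in neither, and the medians ran from -0.18 to 0.062 for raised and 0.08 to 0.36 for lowered genes. Each highest count came without wild type at 22 °C replicate 1. Of the 21 named genes 10 kept their call with the replicate block and 4 within each temperature, and 8 to 20 without 1 library; the cause was not tested. With 3 libraries a group the smallest interaction called was 1.74 in size, and where a group held 3 reads or fewer the size of the change is not fixed by the data.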

Other observations

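The 34 genes lay on 7 of the 10 chromosomes: 18 on A03, 4 each on A02, A06 and A09, 2 on A07 and 1 each on A01 and A10. Of the genes tested these were 0.426% on A03, 0.146% on A02, 0.134% on A06 and 0.0967% on A09, beside 0.118% of all. The shares on A07, A01 and A10 were 0.0721%, 0.0349% and 0.0453%. On A04, A05 and A08 edgeR called 0 genes, where 157, 245 and 209 had an unadjusted p under 0.05 and DESeq2 called 29, 46 and 30. Of the 108 tested genes with no chromosome in their ID edgeR and DESeq2 called 0, and 1 had an unadjusted p under 0.05. All 4 on A02 had a higher response in gi, and all 4 on A06 a lower one, and no test was made of these directions. DESeq2 gave a different balance of types. Of its 517 genes, 207 were called for heat in wild type alone, 155 in gi alone and 49 in opposite directions. A further 68 were weaker in gi and 38 stronger in gi. Of these 517 genes, 23.0% were on A03, beside 14.7% of the genes tested.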
